A study of Mus musculus with 4 samples.

Results

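The genes described here are 44 listed genes of central carbon metabolism and of the response to low oxygen, out of 49490 genes in the deposited table. They cover glucose uptake, glycolysis, lactate and pyruvate handling, the pentose phosphate pathway, the tricarboxylic acid (TCA) cycle, and the hypoxia-inducible factors with their oxygen sensors and targets. All 44 were found by symbol, and all 44 passed the filter on low values (a normalized count of at least 10 in at least 2 libraries), which left 18378 genes. Polyadenylated RNA was sequenced from mouse CD8+ T cells isolated from spleen and lymph nodes and stimulated in vitro. There were 2 libraries with the genotype label WT, from Irf8fl/fl cells, which carry the floxed allele, and 2 with the label Irf8 knockout, from Irf8-/- cells. The labels name no Cre line, and the sources used here give neither the stimulus and its duration nor the strain and age of the mice. Nor do they state whether the 2 libraries of a genotype stem from different mice or cultures, so the p-values below reflect nothing beyond the spread among these 4 libraries, and that spread may be technical.

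Depth was even, between 58899365 and 59724952 recovered reads per library. Irf8, the targeted gene, went against its labels: libraries with the WT label held 6364 and 6081 normalized counts of it and those with the knockout label 89508 and 90222, 14.4-fold more. The groups are therefore called WT-labelled and knockout-labelled, and every direction is that of the knockout-labelled libraries over the WT-labelled ones. Cell markers differed as well. Of 17 plasmacytoid dendritic cell markers, 17 were higher, and together they took 0.0475% and 0.0459% of reads in the WT-labelled libraries against 0.559% in both others. Siglech, their surface lectin, went from 202 to 84289 normalized counts and the homing receptor Ccr9 from 652 to 33235. Of 13 conventional dendritic cell markers, 12 were higher (0.0728% and 0.0734% of reads against 0.856% and 0.865%), with the class II genes Cd74 (16197 to 259254) and H2-Aa (4702 to 77407) the most abundant in the knockout-labelled libraries. Itgax, second to Cd74 in the WT-labelled libraries and looked up after its values were seen, went from 12405 to 13619. Of 10 tested B cell markers, 5 were higher and 0 lower (0.0133% and 0.0124% of reads against 0.0791% and 0.0785%), among them Ighm (7419 to 37077) and Blnk (39.2 to 6965), while the B cell factor Ebf1 had 0 reads in both WT-labelled libraries. Pax5, another B cell factor (means of 3.05 and 5.37), looked up after its values were seen, was near 0 in both groups. Of 14 macrophage and monocyte markers, 11 were lower and 1 higher (0.0424% and 0.0435% of reads against 0.0394% and 0.0388%), Lyz2 going from 12204 to 8379 and Cd68 from 1817 to 11154. The defining markers of CD8+ T cells were abundant in all 4 libraries, but 18 of 20 T cell identity genes were lower and 1 higher, with a median log2 fold change of -0.60, or 66.1% of the WT-labelled level. Thy1 went from 116398 to 74590 and Cd3e from 88610 to 54816. These markers differ between the same groups as every result below, and their part in the results was not tested. In bulk RNA, fewer cells of a type and less RNA per cell cannot be told apart.

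Glycolysis splits glucose into pyruvate in the cytosol, and activated T cells are known to raise it strongly and to release much of the product as lactate. The pentose phosphate pathway branches off at glucose 6-phosphate to make NADPH and ribose, and the TCA cycle oxidises carbon that enters the mitochondrion. Hypoxia-inducible factors are transcription factors whose alpha subunits are marked for destruction by oxygen-dependent prolyl hydroxylases, and their classical targets include most glycolytic enzymes. They bind a short DNA core, the hypoxia response element.

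Promoter windows are shown first for 7 genes on which the results turn: Ldha and Pgk1, textbook hypoxia-inducible glycolytic genes, Hk2, Hif1a itself, and Egln3, Pfkfb4 and Idh2, 3 of the genes that rose most. Each window holds the 250 bases before an annotated transcription start, from RefSeq on GRCm38.p6, the assembly also called mm10, printed 5′ to 3′ on the gene's strand. Capitals mark the hypoxia response element core, searched as ACGTG on both strands, so that it can also read CACGT. The palindrome CACGTG, an E-box that other factors bind, holds the core once on each strand and counts as 2 matches. The windows lie at chr7:46845554-46845803 (plus strand) for Ldha, chrX:106186850-106187099 (plus) for Pgk1, chr6:82774455-82774704 (minus) for Hk2, chr12:73907617-73907866 (plus) for Hif1a, chr12:54203875-54204124 (minus) for Egln3, chr9:108991652-108991901 (plus) for Pfkfb4 and chr7:80115351-80115600 (minus) for Idh2.
Ldha: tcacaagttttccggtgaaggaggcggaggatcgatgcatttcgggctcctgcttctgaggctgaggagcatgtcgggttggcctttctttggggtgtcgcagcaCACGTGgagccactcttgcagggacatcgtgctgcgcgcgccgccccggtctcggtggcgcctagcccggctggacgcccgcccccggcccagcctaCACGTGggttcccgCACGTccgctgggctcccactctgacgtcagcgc
Pgk1: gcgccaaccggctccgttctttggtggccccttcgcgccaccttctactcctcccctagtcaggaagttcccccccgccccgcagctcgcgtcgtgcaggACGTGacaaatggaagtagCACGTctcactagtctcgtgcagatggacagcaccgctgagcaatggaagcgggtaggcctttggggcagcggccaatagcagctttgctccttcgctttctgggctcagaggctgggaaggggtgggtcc
Hk2: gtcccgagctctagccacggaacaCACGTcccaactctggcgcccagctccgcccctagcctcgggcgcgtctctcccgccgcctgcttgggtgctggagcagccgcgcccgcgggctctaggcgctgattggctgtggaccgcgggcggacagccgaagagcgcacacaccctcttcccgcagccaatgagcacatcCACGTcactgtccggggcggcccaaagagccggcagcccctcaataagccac
Hif1a: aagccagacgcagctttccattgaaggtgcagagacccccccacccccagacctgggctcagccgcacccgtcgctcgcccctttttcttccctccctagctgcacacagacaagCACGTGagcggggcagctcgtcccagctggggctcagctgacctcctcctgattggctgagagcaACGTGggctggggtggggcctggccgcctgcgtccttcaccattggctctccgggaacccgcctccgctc
Egln3: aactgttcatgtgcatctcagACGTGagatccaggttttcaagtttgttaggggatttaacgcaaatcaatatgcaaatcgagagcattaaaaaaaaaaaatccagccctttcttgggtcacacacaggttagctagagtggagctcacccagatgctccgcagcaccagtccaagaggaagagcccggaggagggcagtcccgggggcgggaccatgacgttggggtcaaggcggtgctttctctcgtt
Pfkfb4: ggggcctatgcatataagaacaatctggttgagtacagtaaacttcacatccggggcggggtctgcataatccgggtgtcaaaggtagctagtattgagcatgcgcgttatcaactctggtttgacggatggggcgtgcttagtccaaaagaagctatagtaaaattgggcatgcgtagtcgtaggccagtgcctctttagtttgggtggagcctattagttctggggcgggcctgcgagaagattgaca
Idh2: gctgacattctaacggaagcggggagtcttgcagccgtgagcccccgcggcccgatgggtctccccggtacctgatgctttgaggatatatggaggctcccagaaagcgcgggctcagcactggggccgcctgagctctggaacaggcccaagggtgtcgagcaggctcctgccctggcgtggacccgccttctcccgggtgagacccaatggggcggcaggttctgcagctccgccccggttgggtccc

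Ldha has 2 windows in RefSeq, of which the one shown held 5 matches and the other 0. The Hif1a window held 3, those of Hk2 and Pgk1 2 each, the Egln3 window 1, and those of Pfkfb4 and Idh2 0. A RefSeq window was found for 40 of the 44 genes, and 18 of these 40 (45.0%) had the core in at least 1 window. The core stood in 16.6% of all 32851 windows of the same length, and 24.2% of the 11151 tested genes with a window had it in at least 1. Among the genes that changed, 1 of 10 that rose (Egln3) and 8 of the 13 with a window that fell had the core, against 9 of 17 that did not pass. In 7 of the 18 genes at least 1 match was part of the E-box. A match is a description of the letters only, and its absence says only that these letters are not in the window.

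Most of the 44 genes changed little, and a few changed much. At an adjusted p under 0.05 by limma, 10 rose and 16 fell in the knockout-labelled libraries, while 18 did not pass. That is 59.1% of the genes, beside 33.4% of all genes tested. Of the 44, 22.7% rose, against 19.9% of all genes tested, and 36.4% fell, against 13.4% of all. Precision grows with abundance, and among the 9418 tested genes with a mean of at least 500 normalized counts 44.4% passed, against 22 of the 39 such genes here (56.4%). Of those 9418 genes, 22.2% rose and 22.2% fell, so the share that fell was larger among abundant genes than the 13.4% of all. In 39 of the 44 genes the groups did not overlap (16 higher, 23 lower), beside 68.8% of all genes tested (36.5% higher, 32.3% lower).

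The sizes ran the other way from the counts. All 6 changes of more than 2-fold that passed were increases, in Adm, Pfkfb4, Idh2, Aldoc, Idh1 and Egln3, and 0 were decreases. These protein-coding genes are annotated in mm10 as Adm at chr7:110627661-110629820 (plus), Pfkfb4 at chr9:108991778-109032228 (plus), Idh2 at chr7:80094846-80115392 (minus), Aldoc at chr11:78322968-78327781 (plus), Idh1 at chr1:65158616-65186500 (minus) and Egln3 at chr12:54178981-54203860 (minus). Among all genes tested the larger changes were mostly increases as well, as 10.5% rose and 0.876% fell by more than 2-fold with an adjusted p under 0.05. In 35 of the 44 genes the log2 fold change lay between -0.4 and 0.4. The median log2 fold change was -0.07, beside 0.02 for all genes tested and -0.60 for the T cell identity genes, and 43 of the 44 lay above the T cell median, all but Epas1. Together the 44 genes made up 1.08% and 1.05% of reads in the WT-labelled libraries and 1.03% and 1.04% in the knockout-labelled ones. In the plot of fold changes by role, 2 of the 6 large increases, Idh1 and Idh2, share a role and the other 4 lie in different ones.

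**Figure D1:**
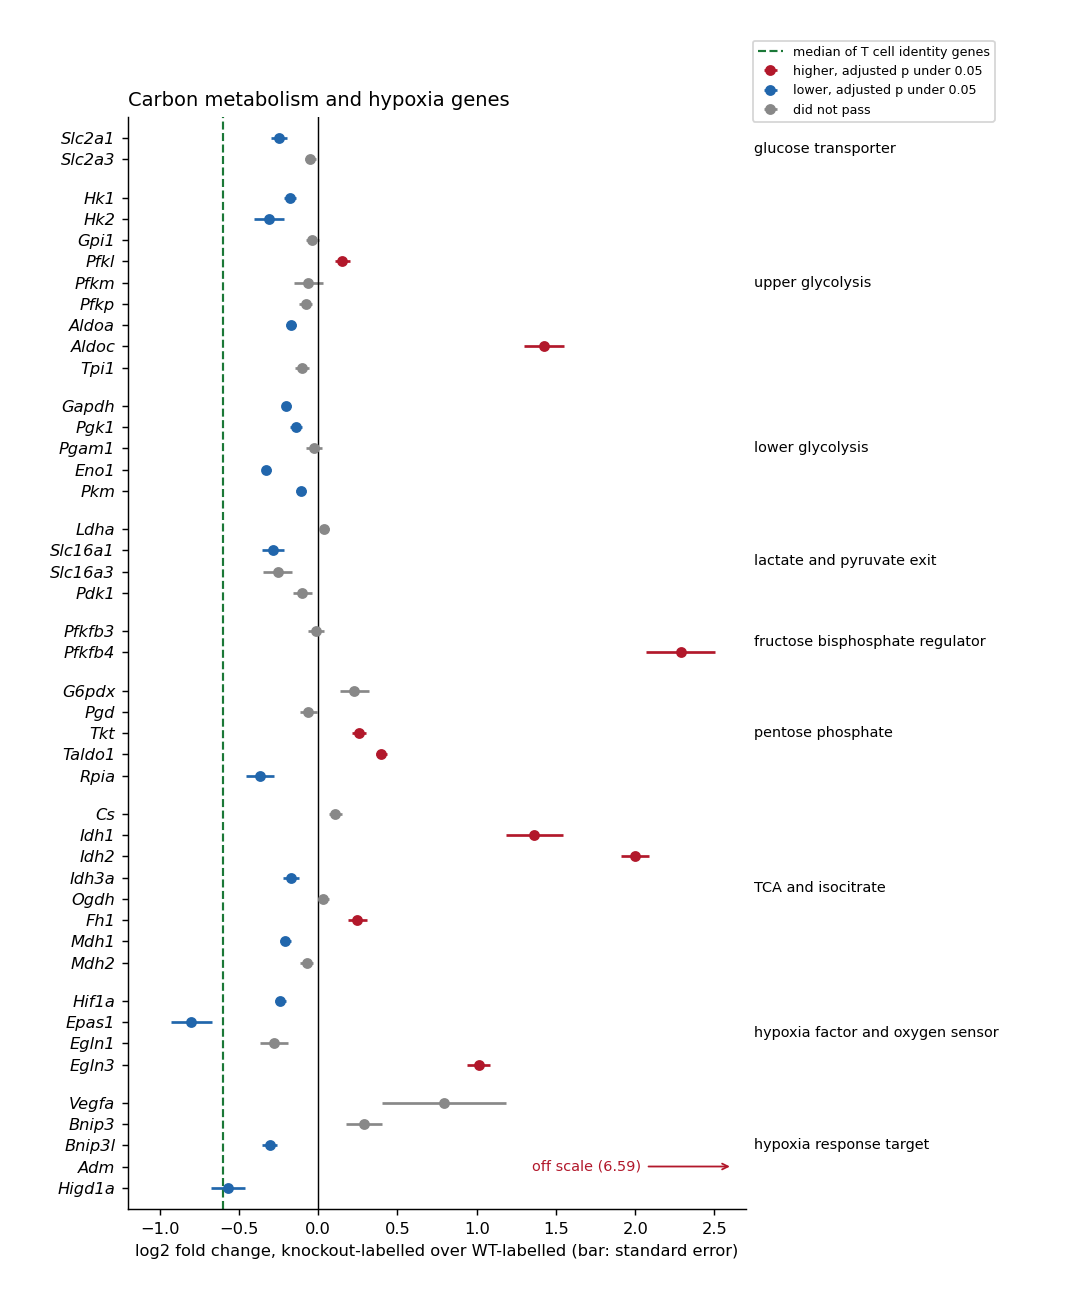
Log2 fold change of each of the 44 genes (x axis, knockout-labelled over WT-labelled, 2 libraries each), grouped by role, with bars of 1 standard error from limma and colours for the call. Most points lie between the T cell identity median of -0.60 (dashed line) and 0, and Pfkfb4, Idh2, Aldoc, Idh1 and Egln3 stand apart on the right, with Adm off the scale.

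Glucose enters T cells through facilitative transporters. Slc2a1, which encodes GLUT1, the transporter induced by activation, stood at 5485 and 5294 normalized counts in the WT-labelled libraries and at 4410 and 4657 in the knockout-labelled ones; values below are in the same unit and order. It was lower in both knockout-labelled libraries and fell to 84.1% of the WT-labelled mean (log2 fold change -0.25, standard error 0.05, adjusted p = 0.0113). Slc2a3, which encodes the high-affinity transporter GLUT3, had 11717 and 11653 against 11243 and 11341 and did not pass (log2 fold change -0.05, adjusted p = 0.320). Per kilobase of transcript, Slc2a3 was the more abundant of the pair in every library. The share of Slc2a1 in their sum was 35.9% ± 0.49 (SD, n = 2) in the WT-labelled libraries and 32.8% ± 0.71 in the others. This level depended on the length used, and with the length of all annotated exons the shares were 48.8% and 45.3%.

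The hexokinases trap glucose as glucose 6-phosphate. Hk1, the constitutive enzyme, had 8484 and 8806 against 7626 and 7655 and fell by 0.18 on the log2 scale (adjusted p = 0.0174). Hk2, the inducible enzyme, had 775 and 828 against 638 and 656 and fell by 0.31 (standard error 0.09, adjusted p = 0.0487), close to the threshold; its call was lost under 6 of 14 alternatives. Hk1 made up between 93.2% and 93.9% of the summed per-kilobase level of this pair in each library. Hk2 held 6.71% ± 0.13 of it in the WT-labelled group and 6.17% ± 0.10 in the knockout-labelled group (SD, n = 2 each), or 11.7% and 10.8% with the length of all annotated exons. The pair leaves out Hk3, looked up after its values were seen, which went from 97.8 to 186 and passed as higher (log2 fold change 0.92, adjusted p = 0.0391). Per kilobase, Hk3 (means of 30.4 and 57.9) was below Hk2 (145 and 117). Gpi1, the isomerase of the next step, overlapped between the groups (44980 and 41813 against 42238 and 42274; log2 fold change -0.04, adjusted p = 0.517).

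Phosphofructokinase commits the sugar to glycolysis. Of its 3 genes only Pfkl, the liver-type subunit, passed: it had 6039 and 5736 against 6482 and 6597 and rose 1.11-fold (adjusted p = 0.0473), an increase whose sign turned with median centring (-0.15). Its call held under only 4 of 14 alternatives and was lost among others with edgeR (TMM, adjusted p = 0.0521) and DESeq2 (0.0553), over a range of 0.0142 to 0.303. Pfkp, the platelet-type subunit and the most abundant per kilobase, had 18057 and 17283 against 16343 and 17144 (log2 fold change -0.08, adjusted p = 0.20), and the muscle-type Pfkm overlapped between the groups (931 and 851 against 843 and 860; adjusted p = 0.634). The Pfkl share of the 3 was 25.7% ± 0.06 and 28.8% ± 0.41 (SD, n = 2 each), a ratio within each library that scaling does not touch.

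Aldolase cleaves fructose 1,6-bisphosphate. Aldoa, its main form, had 66352 and 64952 against 57100 and 59416 and fell to 88.7% of the WT-labelled mean (log2 fold change -0.17, adjusted p = 0.00684). Its name belongs to 2 annotated genes on the minus strand of chromosome 7, so its reads cannot be assigned to 1 of them. Aldoc, the form best known from brain, had 337 and 395 against 925 and 1039, so both knockout-labelled libraries were far above both others. Aldoc rose 2.68-fold, from 366 ± 41.2 to 982 ± 80.4 (SD, n = 2 each; log2 fold change 1.42, standard error 0.13, adjusted p = 3.45e-04). It remained a minor form, at 0.31% ± 0.04 and 0.93% ± 0.05 of the aldolase level per kilobase (SD, n = 2 each), or 0.50% and 1.48% with the length of all annotated exons. Tpi1, the triose isomerase, had 13246 and 12520 against 11759 and 12263 and did not pass (log2 fold change -0.10, adjusted p = 0.132).

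**Figure D2:**
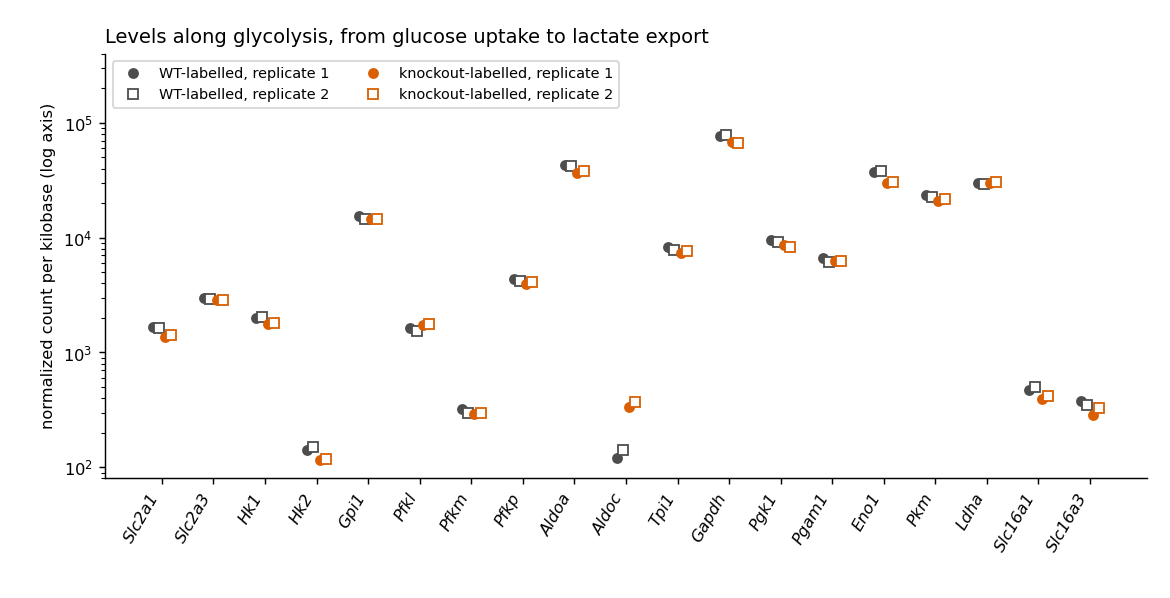
Normalized count per kilobase of the longest coding transcript (y axis, log scale) for the transporters and enzymes from glucose uptake to lactate export, with 1 point per library. Gapdh, Aldoa, Eno1, Ldha and Pkm are the highest in all libraries, Hk2 and Aldoc the lowest in the WT-labelled libraries, and Aldoc shows the widest gap between the groups.

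In lower glycolysis, where ATP and NADH are gained, 4 of 5 genes fell and 0 rose, by small amounts, with a median log2 fold change of -0.14. Beside this, 13.4% of all genes tested fell, and 22.2% of those with a mean of at least 500 normalized counts. Eno1, the enolase, showed the clearest decrease: 76078 and 77298 against 60831 and 61522, or 79.8% of the WT-labelled mean (log2 fold change -0.33, standard error 0.03, adjusted p = 2.04e-04). The near-identical copy Eno1b held reads equal to 5.48% of Eno1's, and how the counting divided reads between such copies is not given in the sources used here. Gapdh, the dehydrogenase often used as a reference gene, had 108573 and 112337 against 96851 and 95430 and fell by 0.20 on the log2 scale (adjusted p = 0.00220).

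The other decreases were smaller still, and those of Pgk1 and Pkm lost their call with the replicate number as a block and without either knockout-labelled library, among 5 and 6 of 14 alternatives. Pgk1, the phosphoglycerate kinase, had 17333 and 16681 against 15700 and 15192 (log2 fold change -0.14, adjusted p = 0.0330), and its copy Pgk1-rs7 held reads equal to 9.53% of its own. Pkm, the pyruvate kinase gene of T cells, had 56806 and 54812 against 50870 and 52572 (log2 fold change -0.11, adjusted p = 0.0425), and the M1 and M2 forms are not separated in a table per gene. Another annotated gene on the same strand, Gm49759, shares 767 exon bases with Pkm. Pgam1, the phosphoglycerate mutase, overlapped between the groups (11791 and 10810 against 11081 and 11090; adjusted p = 0.721), and a pseudogene copy of it, Pgam1-ps2, held reads equal to 14.0% of its own. Per kilobase, Gapdh was the most abundant of the 44 genes in both groups (77785 ± 1874 and 67705 ± 707 normalized counts per kilobase, SD, n = 2 each) and Aldoa the next. Eno1 and Ldha, at ranks 3 and 4 in the WT-labelled libraries, changed places: Eno1 went from 37833 ± 426 to 30181 ± 241 and Ldha from 29684 ± 445 to 30507 ± 349 (SD, n = 2 each), so that in the knockout-labelled libraries their levels lay within the spread of each other. The 15 glycolytic enzyme genes, Ldha included, made up 0.808% and 0.784% of reads in the WT-labelled libraries and 0.750% and 0.759% in the others.

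Pyruvate is either reduced to lactate or passed on to the mitochondrion. Ldha, the lactate dehydrogenase subunit that favours lactate, had 54447 and 53305 against 54921 and 55818. Its groups did not overlap, but the difference did not pass (log2 fold change 0.04, standard error 0.03, adjusted p = 0.319), and its sign turned with median centring (-0.26) and with upper-quartile factors in edgeR (-0.04). Slc16a1, the lactate exporter MCT1, had 2106 and 2232 against 1725 and 1839 and fell to 82.2% of the WT-labelled mean (log2 fold change -0.28, adjusted p = 0.0230). Slc16a3, the exporter MCT4, had 1628 and 1523 against 1229 and 1416 and did not pass (log2 fold change -0.26, adjusted p = 0.0828). The pair kept about the same proportion, with Slc16a1 at 57.4% ± 2.17 and 56.9% ± 1.36 of their sum per kilobase (SD, n = 2 each) and overlapping groups. Pdk1, a kinase that shuts pyruvate dehydrogenase, had 2378 and 2363 against 2174 and 2249 and did not pass (log2 fold change -0.10, adjusted p = 0.240). Its relatives Pdk2, Pdk3 and Pdk4 were looked up after their values were seen. Pdk2 went from 343 to 757 and passed as higher by limma (log2 fold change 1.16, adjusted p = 0.00314). Pdk3 went from 2175 to 2711 and also passed (0.32, adjusted p = 0.00839), by about the size of the shift from median centring. Per kilobase, Pdk3 (means of 1029 and 1282) was above Pdk1 (457 and 427) and Pdk2 (153 and 337). Pdk4 had 0 reads in every library.

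Fructose 2,6-bisphosphate, the strongest activator of phosphofructokinase, is made and removed by bifunctional enzymes. Pfkfb4, one of these, had 117 and 134 in the WT-labelled libraries and 504 and 749 in the knockout-labelled ones. It rose 4.99-fold, from 125 ± 11.8 to 626 ± 173 (SD, n = 2 each; log2 fold change 2.29, standard error 0.22, adjusted p = 4.65e-04), with its knockout-labelled replicates further apart than those of most genes here. Pfkfb3, the form with the highest ratio of kinase to phosphatase activity, overlapped between the groups (3446 and 3531 against 3443 and 3471; log2 fold change -0.01, adjusted p = 0.869). Pfkfb4 therefore made up 4.71% ± 0.35 of the pair per kilobase in the WT-labelled libraries and 19.8% ± 4.33 in the knockout-labelled libraries (SD, n = 2 each), as the plot of isozyme shares shows.

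**Figure D3:**
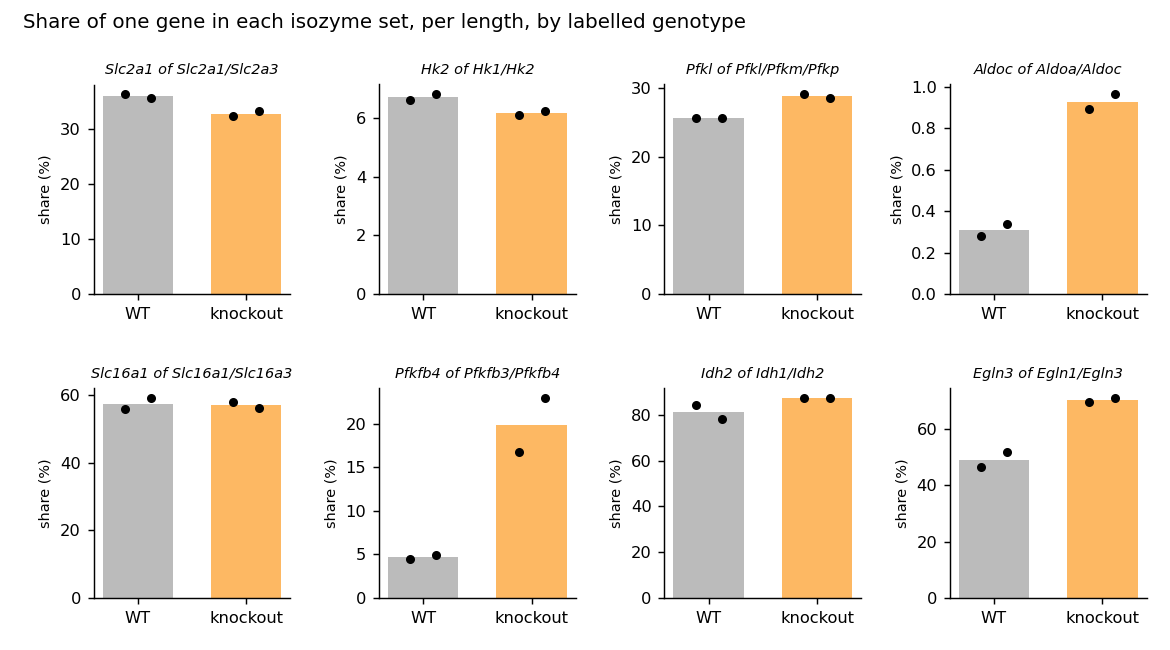
Share of 1 gene in the summed per-kilobase level of its isozyme set (y axis, percent) in the WT-labelled (grey) and knockout-labelled (orange) libraries, with bars at the mean of 2 libraries and points for each. The share of Pfkfb4 goes from 4.71% to 19.8%, of Egln3 from 48.9% to 70.1% and of Aldoc from 0.31% to 0.93%, while the share of Slc16a1 overlaps between the groups. The Egln3 share is that in its pair with Egln1 and leaves out Egln2.

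Of the 5 pentose phosphate genes 2 rose and 1 fell, beside 19.9% and 13.4% of all genes tested. In the non-oxidative branch, which moves carbon between sugars, Taldo1 (transaldolase) had 9564 and 9657 against 12537 and 12788 and rose 1.32-fold (log2 fold change 0.40, standard error 0.04, adjusted p = 3.60e-04), though not with median centring (0.10, adjusted p = 0.0843). Tkt (transketolase) had 14892 and 13796 against 17315 and 16984 and rose 1.2-fold (adjusted p = 0.00635), a sign that turned with median centring (-0.04). Rpia, the isomerase that yields ribose 5-phosphate, had 1485 and 1491 against 1235 and 1078 and fell to 77.7% of the WT-labelled mean (log2 fold change -0.37, adjusted p = 0.0224). In the oxidative branch, which yields NADPH, neither gene passed. G6pdx, the first and rate-limiting dehydrogenase, had 2561 and 2471 against 2691 and 3225 (log2 fold change 0.23, adjusted p = 0.110; -0.07 with median centring), and Pgd, the next dehydrogenase, overlapped between the groups (5817 and 5387 against 5283 and 5447; adjusted p = 0.428). The median over the 5 genes was 0.23, and -0.07 with median centring.

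Among the TCA and isocitrate genes the largest differences lay in the NADP-dependent isocitrate dehydrogenases, which convert isocitrate and 2-oxoglutarate outside the classical cycle step. Idh2, the mitochondrial enzyme, had 760 and 687 in the WT-labelled libraries and 2763 and 3020 in the knockout-labelled ones. It rose 4.0-fold, from 724 ± 51.6 to 2892 ± 182 (SD, n = 2 each; log2 fold change 2.0, standard error 0.09, adjusted p = 1.56e-05), the smallest adjusted p of the 44 genes. Per kilobase it went from rank 35 to rank 24 of the 44. Idh1, the cytosolic enzyme, had 185 and 252 against 533 and 583 and rose 2.55-fold, from 219 ± 47.4 to 558 ± 35.4 (SD, n = 2 each; log2 fold change 1.36, standard error 0.18, adjusted p = 0.00190). Idh2 held 84.4% and 78.2% of the pair per kilobase in the WT-labelled libraries and 87.2% in both others.

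The other TCA and isocitrate genes moved little. Idh3a, the catalytic subunit of the NAD-dependent isocitrate dehydrogenase, had 5530 and 5552 against 4749 and 5087 and fell by 0.17 on the log2 scale (adjusted p = 0.0431). Mdh1, the cytosolic malate dehydrogenase, had 12738 and 12895 against 11058 and 11144 and fell to 86.6% (log2 fold change -0.21, adjusted p = 0.00509), while its mitochondrial counterpart Mdh2 had 21869 and 23115 against 21169 and 21572 and did not pass (adjusted p = 0.196). Fh1, the fumarase, had 3074 and 3185 against 3843 and 3591 and rose 1.19-fold (adjusted p = 0.0198), with its sign turned by median centring (-0.05). Cs, the citrate synthase, had 13213 and 12462 against 13821 and 13864 (log2 fold change 0.11, adjusted p = 0.0883; -0.19 with median centring). Ogdh, a subunit of the 2-oxoglutarate dehydrogenase complex, had 14073 and 14307 against 14318 and 14682 (log2 fold change 0.03, adjusted p = 0.538; -0.27 with median centring and -0.05 with upper-quartile factors). Of the 8 genes 3 rose and 2 fell, beside 19.9% and 13.4% of all genes tested, and the fall of Idh3a lost its call under 6 of 14 alternatives. The 8 had a median of 0.07 that became -0.23 with median centring and -0.01 with upper-quartile factors.

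Both hypoxia-inducible factor genes among the 44, Hif1a and Epas1, fell. Outside the 44, the factor genes Arnt and Hif3a overlapped between the groups and did not pass (log2 fold changes -0.03 and 0.33, adjusted p = 0.828 and 0.717). Hif1a, the alpha subunit best known for driving glycolytic genes, had 12389 and 12750 against 10670 and 10642 and fell to 84.8% of the WT-labelled mean (log2 fold change -0.24, standard error 0.04, adjusted p = 0.00350). An antisense gene shares 330 of its exon bases and a gene on the same strand 148, and whether counting used the strand is not given in the sources used here. Epas1, which encodes HIF-2 alpha, was far less abundant, with 465 and 445 against 252 and 271, and its 57.4% of the WT-labelled mean was the deepest decrease among the 44 genes (log2 fold change -0.80, standard error 0.13, adjusted p = 0.00430).

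The oxygen sensors did not move together. Egln3, which encodes the prolyl hydroxylase PHD3, had 1098 and 1179 against 2258 and 2334, with both knockout-labelled libraries well above both others. Egln3 rose 2.02-fold, from 1139 ± 57.5 to 2296 ± 54.2 (SD, n = 2 each; log2 fold change 1.01, standard error 0.07, adjusted p = 1.35e-04). Egln1, which encodes PHD2, the main sensor at normal oxygen, had 1724 and 1495 against 1338 and 1308, just outside the threshold (log2 fold change -0.28, standard error 0.09, adjusted p = 0.0567). Egln1 passed as lower under 7 of 14 alternatives, among them edgeR with TMM factors (adjusted p = 0.0453) and DESeq2 (0.0395), and the adjusted p ranged from 0.0026 to 0.188 over the 14. The per-kilobase share of Egln3 in the pair was 48.9% ± 3.78 in the WT-labelled and 70.1% ± 0.83 in the knockout-labelled libraries (SD, n = 2 each). The pair leaves out Egln2, another prolyl hydroxylase gene, looked up after its values were seen. Per kilobase, Egln2 had WT-labelled and knockout-labelled means of 1993 and 1801, above Egln3 (428 and 862) and Egln1 (448 and 368). Egln2 did not pass by limma (log2 fold change -0.15, adjusted p = 0.0667). Egln3 was therefore not the most abundant sensor gene in either group.

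Of the 5 hypoxia response targets 1 rose and 2 fell, beside 19.9% and 13.4% of all genes tested. Adm, which encodes the vasodilator peptide adrenomedullin, had 0 reads in both WT-labelled libraries and 73 and 131 reads in the knockout-labelled ones (71.5 and 127.5 normalized counts). It was at least 32.5-fold higher, with a floor of 3 reads per WT-labelled library that covers counting error only, and passed with an adjusted p of 5.94e-04. Its fitted log2 fold change of 6.59 depends on the added constant of 1 and is no bound. Even in the knockout-labelled libraries Adm ranked 42 of the 44 per kilobase. Vegfa, the vascular growth factor, was low as well (40.7 and 88.8 against 113 and 98.3) and did not pass (log2 fold change 0.80, standard error 0.39, adjusted p = 0.173).

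The mitochondrial targets differed from each other. Bnip3l, the mitophagy receptor NIX, had 8210 and 8774 against 6828 and 6902 and fell to 80.8% (log2 fold change -0.31, adjusted p = 0.00365); reads of its pseudogene copy equal 6.94% of its own. Its relative Bnip3 had 810 and 983 against 1095 and 1086 and did not pass (log2 fold change 0.29, adjusted p = 0.0964; -0.01 with median centring). Higd1a, a small mitochondrial protein, had 4515 and 5608 against 3242 and 3560 and fell to 67.2% of the WT-labelled mean (log2 fold change -0.57, standard error 0.11, adjusted p = 0.00846), with 683 exon bases shared with an antisense gene. The median over the 5 was 0.29, also with Adm at its bound, and -0.01 with median centring, so the targets had no common direction.

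**Figure D4:**
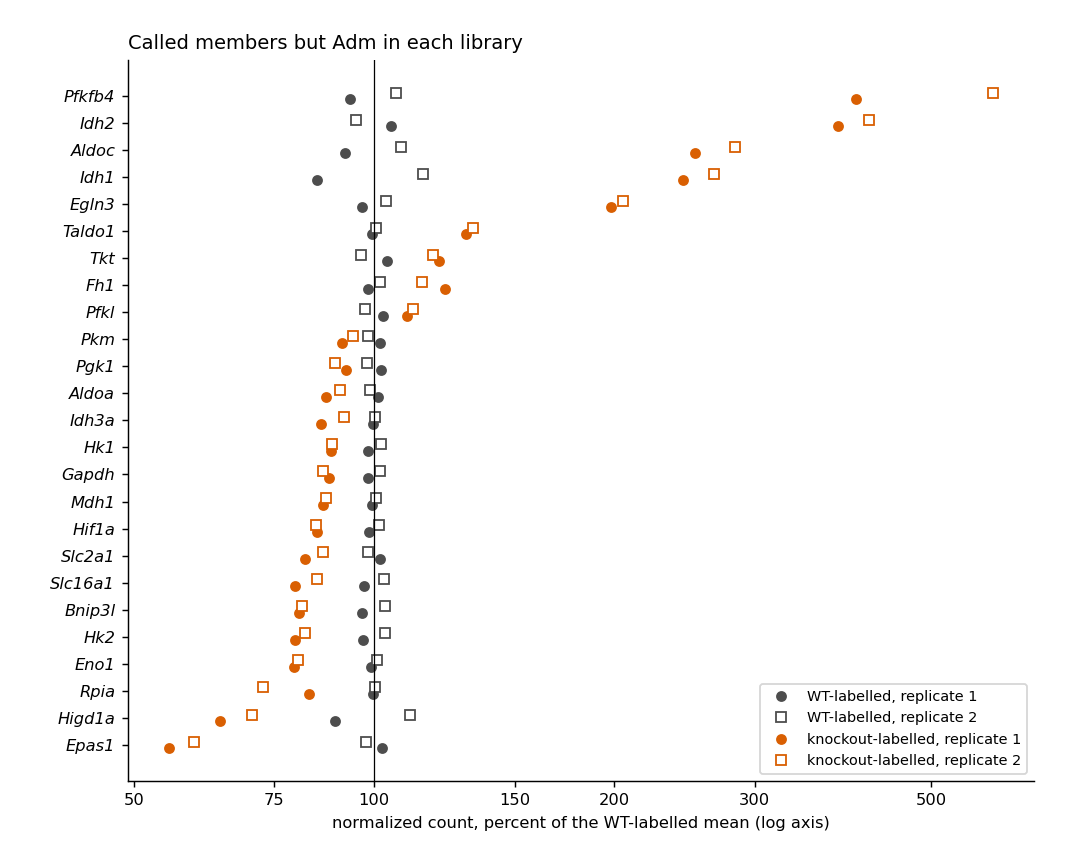
Normalized count of each gene that passed, as a percentage of its WT-labelled mean (x axis, log scale), with 1 point per library and Adm left out because its WT-labelled mean is 0. The knockout-labelled points (orange) lie clear of the WT-labelled ones (grey) in every row, by the most for Pfkfb4 and Idh2 and by the least for Pkm.

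Other genes of the same pathways, which are not among the 44, gave a mixed picture. Of 19 further tested glycolysis genes, 11 rose and 2 fell, with a median of 0.92. Slc2a6, a glucose transporter family member, went from 184 ± 20.6 to 2666 ± 73.9 normalized counts and Adpgk, an ADP-dependent glucokinase, from 1627 ± 84.8 to 8624 ± 36.8 (SD, n = 2 each; log2 fold changes 3.86 and 2.41), while Slc2a8 fell by 0.46 and Pgm2, a phosphoglucomutase, by 0.28. Ldhb, the lactate dehydrogenase subunit that favours pyruvate, singled out after its values were seen, went from 275 ± 33.1 to 2726 ± 72.2 (SD, n = 2 each; log2 fold change 3.31), beside the Ldha values above. Of 7 further pentose phosphate genes 2 rose and 2 fell (median -0.14). Pgls, the lactonase of the oxidative branch, went from 8324 ± 20.5 to 15174 ± 273.7 (SD, n = 2 each; log2 fold change 0.87), and Prps2, a ribose phosphate kinase, rose by 0.23, less than the 0.30 by which median centring lowers every gene. Tktl1 and Rbks fell by 0.77 and 0.43.

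Of 29 further TCA and pyruvate entry genes 6 rose and 2 fell, with a median of 0.02 that became -0.28 with median centring and -0.06 with upper-quartile factors. The citrate carrier Slc25a1 rose by 0.73 and the malic enzyme Me2 by 0.38, while Idh3b, a partner subunit of Idh3a, and Mpc2, a subunit of the mitochondrial pyruvate carrier, fell by 0.18 and 0.29. Of 27 further hypoxia genes 9 rose and 4 fell (median -0.03). Tfrc, the transferrin receptor, went from 2535 ± 1.72 to 6727 ± 646.7 and Car9, a carbonic anhydrase and classical hypoxia marker, from 27.5 ± 8.58 to 123 ± 51.0 (SD, n = 2 each; log2 fold changes 1.40 and 2.09), while Fam162a and Cited2, a HIF-induced inhibitor of HIF, fell by 0.37 and 0.29. The counts of these lists stand beside the 19.9% of all genes tested that rose and the 13.4% that fell.

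The median size of the log2 fold changes of the 44 genes, without regard to sign, was 0.23, less than the shift another scaling can give. Median centring of each library lowered the log2 fold change of every gene by 0.30, so that the median of all genes went from 0.02 to -0.28 and 24.9% of all calls were increases in place of 59.7%, against 47.0% with upper-quartile factors in edgeR. Under it 6 of the 44 rose and 31 fell. The calls of 12 genes held under every alternative in which they could be tested: increases of Aldoc, Pfkfb4, Idh1, Idh2, Egln3 and Adm, and decreases of Gapdh, Eno1, Mdh1, Hif1a, Epas1 and Bnip3l, with Adm not tested when 1 knockout-labelled library was left out. Without knockout-labelled replicate 1, 11 genes lost their call (Slc2a1, Hk1, Hk2, Pfkl, Aldoa, Pgk1, Pkm, Slc16a1, Idh3a, Fh1 and Higd1a) and Adm could not be tested, while G6pdx passed (log2 fold change 0.36, adjusted p = 0.0238), so that the counts became 8 and 7 (higher and lower). Without knockout-labelled replicate 2, 8 lost it (Hk1, Hk2, Pfkl, Pgk1, Pkm, Slc16a1, Rpia and Idh3a) and Adm could not be tested, with counts of 8 and 9. Of the 44 genes, 9 were higher and 14 lower in the knockout columns of the authors' deposited table, with the same call as here for 41. The other 3, Hk2, Pfkl and Idh3a, passed here only.

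**Figure D5:**
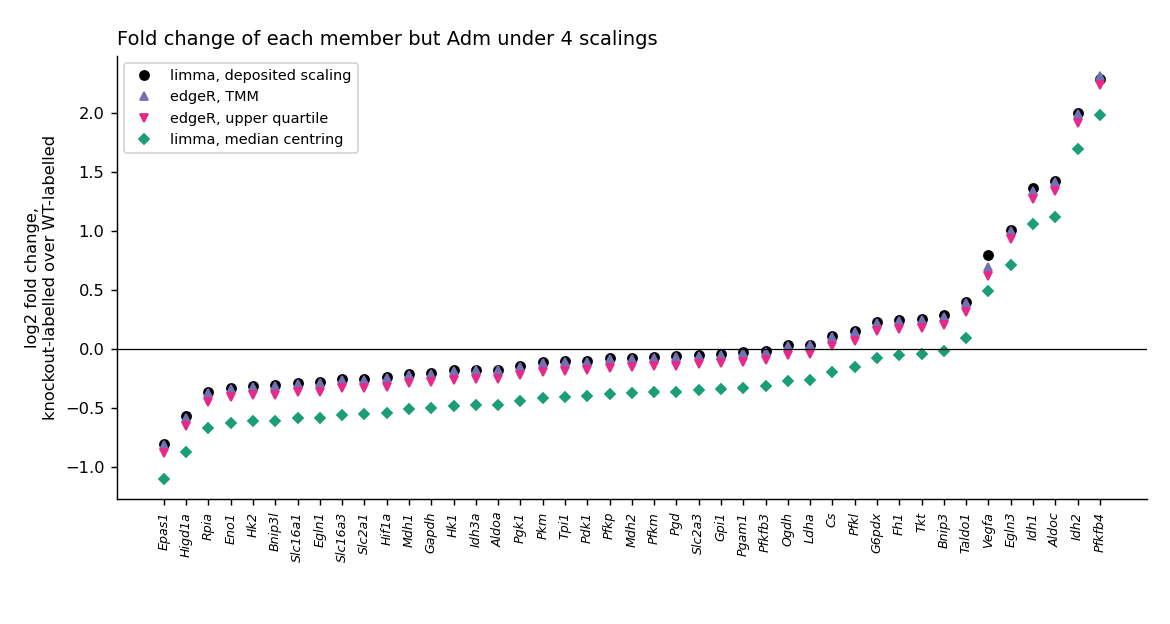
Log2 fold change of each gene but Adm (y axis, knockout-labelled over WT-labelled) under the deposited scaling with limma, with edgeR under 2 kinds of scaling factor, and with median centring, genes ordered by the first. The points of Pfkl, Tkt, Fh1, Ldha, Cs, Ogdh, G6pdx and Bnip3 lie below 0 only under the green diamonds of median centring, except Ldha and Ogdh, which also do so with upper-quartile factors.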

How the data were processed

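The 44 genes and all lists were chosen with earlier results of these data known. The submitters' processing notes name the tools HISAT2 2.2.1, StringTie 2.1.4, Trim Galore 0.4.4 and DESeq2 and the build mm10; their settings, the gene annotation and strandedness were not given in the sources used here. Per the file headers and values, the authors deposited normalized counts per library (a signal), with a log2 fold change, its error, a test score and p-values. Each value was a whole multiple of 1 read's worth (100.0% of values within 0.01 reads), which gave the reads per library.

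The unit was normalized, so the test was limma 3.58.1 (trend, robust variance) on log2(normalized count + 1), not edgeR on counts, with no covariate and Benjamini-Hochberg adjustment over the 18378 genes tested; this scale understates changes of low genes. Folds are ratios of means, and errors are SDs of 2 libraries. The libraries of a pair differed beyond counting noise (chi-square per degree of freedom 21.7 and 6.45). An exact permutation test of 2 against 2 cannot go below 0.333. Levels between genes are per kilobase of the longest coding transcript in GENCODE M21 (GRCm38), matched by symbol. Named genes are Irf8, all 44, from each further pathway list up to 2 higher and 2 lower genes of lowest adjusted p, and the 2 most abundant genes of each marker list with any at 0 in a group. Outside this rule, Ldhb, Itgax, Pax5, Hk3, Pdk2, Pdk3, Pdk4, Egln2, Arnt and Hif3a were named after their values were seen. Alternatives were pseudocounts of 0.1 and 10, median centring, a filter minimum of 50 or none, a replicate block, each library left out, limma without robust variance, and edgeR 4.0.16 and DESeq2 1.42.0 on the recovered reads. For the isozyme shares, the exon union length and leaving out each library were added after seeing the data. Same-numbered libraries did not deviate together (r = 0.02 across 18378 genes, which are not independent replicates). The scripts were tested on simulated data.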

Additional observations from a re-analysis of the deposited data

How the results depend on the processing

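The 44 genes gave 8 to 10 higher and 12 to 22 lower under pseudocounts of 0.1 and 10, no filter, a minimum of 50, no robust variance and the other tools. Over all genes, the count test (edgeR, TMM) on whole reads gave 3691 increases and 2652 decreases. Median centring gave 2389 genes higher and 7210 lower in all, 6 and 31 among the 44 and a median of -0.37; edgeR with upper-quartile factors gave a median of -0.15. With 1 library left out, which also leaves fewer samples, the ranges were 2195 to 4193 higher and 1540 to 2818 lower among all genes, 8 to 11 higher and 7 to 18 lower among the 44, and -0.11 to -0.046 for their median. Signs turned with median centring for Pfkl (-0.15), Ldha (-0.26), G6pdx (-0.073), Tkt (-0.042), Cs (-0.19), Ogdh (-0.27), Fh1 (-0.053) and Bnip3 (-0.011), and with upper-quartile factors for Ldha (-0.041) and Ogdh (-0.049). They also turned without WT-labelled replicate 1 for Gpi1 (range with each library left out -0.090 to 0.015), Pfkm (-0.13 to 0.0015) and Pgam1 (-0.089 to 0.036), and without WT-labelled replicate 2 for Pfkfb3 (-0.031 to 0.0046); all 4 had overlapping groups. The difference in the Slc16a1 share ranged from -2.01 to 1.06 points with a library left out, above 0 without WT-labelled or knockout-labelled replicate 2, and that of Slc16a3 from -1.06 to 2.01. With the exon union length, an alternative chosen after seeing the data like the left-out libraries for shares, the share differences were -0.906 points for Hk2, 3.69 for Pfkl, -0.541 for Pfkm and 0.985 for Aldoc, and 0 signs turned. With the replicate number as a block, 3415 genes were higher and 2168 lower in all and 9 and 12 among the 44, Hk2, Pfkl, Pgk1, Pkm and Idh3a no longer passing (adjusted p from 0.0533 to 0.0974); the labels do not say that the numbers pair the libraries. The causes of these shifts were not tested. With 2 libraries a group, the smallest differences that passed among the 44 (Pfkl, 1.11-fold, and Pkm, 92.7% of the WT-labelled mean) kept their call under 4 and 8 of 14 alternatives.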
